A study of Saccharomyces cerevisiae with 4 samples.

Results

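Aminoacyl-tRNA synthetases are the enzymes that join each amino acid to its transfer RNA (tRNA), and their messenger RNAs were compared between a reference yeast strain and a strain with a minimal set of glycolytic genes. The gene set has 35 members among the 5472 gene models of the deposited table, namely 21 genes for cytosolic enzymes and 14 for mitochondrial ones. Members were chosen by their systematic names for this enzyme family, and the family was selected on the measured rise of SLM5 in the same comparison, so the rise of SLM5 is a description and no test of it is given. All 35 members had exactly 1 model each and all 35 were tested by the authors, so no member was lost to a filter on low values.

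The organism is Saccharomyces cerevisiae, and its messenger RNAs were sequenced in 4 libraries, 2 per strain. The reference is CEN.PK113-7D, a prototrophic haploid of genotype MATa MAL2-8c SUC2. The minimal glycolysis strain, IMX372, shares MATa, MAL2-8c and SUC2 and lacks 13 minor paralogs of glycolysis and fermentation, which are ADH2, ADH4 and ADH5, PDC5 and PDC6, PYK2, ENO1, GPM2 and GPM3, TDH1 and TDH2, and HXK1 and GLK1. In IMX372 the marker SpHis5 stands in glk1, KlLEU2 in hxk1 and KlURA3 in tdh1, and the native marker genes carry the alleles ura3-52, his3-1 and leu2-3,112. The labels describe IMX372 as a single strain, so effects of the deletions, of the markers and of any other change in that strain cannot be told apart. Both strains grew with aeration at 30 °C and pH 5 on glucose at 20 g/L, and RNA came from the middle of exponential growth. The table holds a single FPKM per model and strain, a fragment count scaled by the authors to model length and library size and pooled by them over both libraries, so no value below has an SD and the depth behind each value is unknown. FPKM is a share of the library, so total RNA per cell was not measured.

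Translation in yeast runs in both the cytosol and the mitochondrial matrix, and each compartment needs its own supply of charged tRNAs. Mitochondrial synthetases are encoded in the nucleus, made in the cytosol and imported, and they serve the few proteins encoded by mitochondrial DNA. For 14 amino acids the members include a separate mitochondrial gene. For alanine, cysteine, glutamine, glycine, histidine and valine they do not, and ALA1, GRS1, HTS1 and VAS1 are known to give rise to both the cytosolic and the mitochondrial enzyme.

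Cytosolic and mitochondrial enzymes for the same amino acid are often distant relatives, so it was checked whether sequencing reads could be shared between them. In the R64 reference genome, the 35 coding sequences hold 66722 windows of 51 bases, the read length in the labels. None of these windows occurred a second time in the genome as an exact copy, on either strand. Matches with mismatches were not searched for, so sharing of reads through them was not examined. No member overlapped another model of the table either. The asparaginyl pair and the arginyl pair show how short the shared stretches are. The arginyl pair has the highest protein identity of the 15 pairs of a cytosolic and a mitochondrial member. The sequences below are from the coding strand of R64, the capitals mark the longest run of bases that both genes of a pair share, and 20 bases are printed on each side.
DED81: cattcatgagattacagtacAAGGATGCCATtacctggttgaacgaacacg
SLM5: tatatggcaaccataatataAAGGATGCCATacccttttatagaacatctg
YDR341C: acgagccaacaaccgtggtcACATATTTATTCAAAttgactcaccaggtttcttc
MSR1: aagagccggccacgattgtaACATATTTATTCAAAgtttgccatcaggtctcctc
The shared run of the asparaginyl pair is 11 bases long and begins at base 1198 of the DED81 coding sequence and base 1429 of that of SLM5. It is 15 bases long in the arginyl pair. In a global alignment of the encoded proteins, 27.9% of the shorter protein of the asparaginyl pair was identical, against 59.8% in the arginyl pair. The longest run of any of the 15 pairs was 16 bases, between CDC60 and NAM2. GRS1 was also compared with GRS2, which is not a member. There 60.0% of the shorter protein was identical, and the longest shared run was 17 bases. The strains' own genome, CEN.PK113-7D, was not searched.

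The cytosolic synthetase genes were expressed several times more strongly than the mitochondrial ones in both strains, and the classes did not overlap in either. On the FPKM scale, which is per length, the 21 cytosolic genes ranged from 157 to 488.5 in the reference, with a median of 283. The 14 mitochondrial genes ranged from 30.1 to 92.3, with a median of 50.3, so the medians stood 5.63-fold apart. In the minimal glycolysis strain the cytosolic genes ranged from 144 to 492 and the mitochondrial genes from 25.6 to 96.5, and the medians were 6.46-fold apart. The median of all 5329 named genes with a ratio was 63.1 in the reference. All mitochondrial genes but MSK1 lay below that median, and the cytosolic class lay well above it. The lowest cytosolic gene in the reference was CRS1 for cysteine (YNL247W), higher than 73.8% of all genes, and the lowest mitochondrial gene was ISM1 for isoleucine (YPL040C), higher than 26.2% of them.

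**Figure D1:**
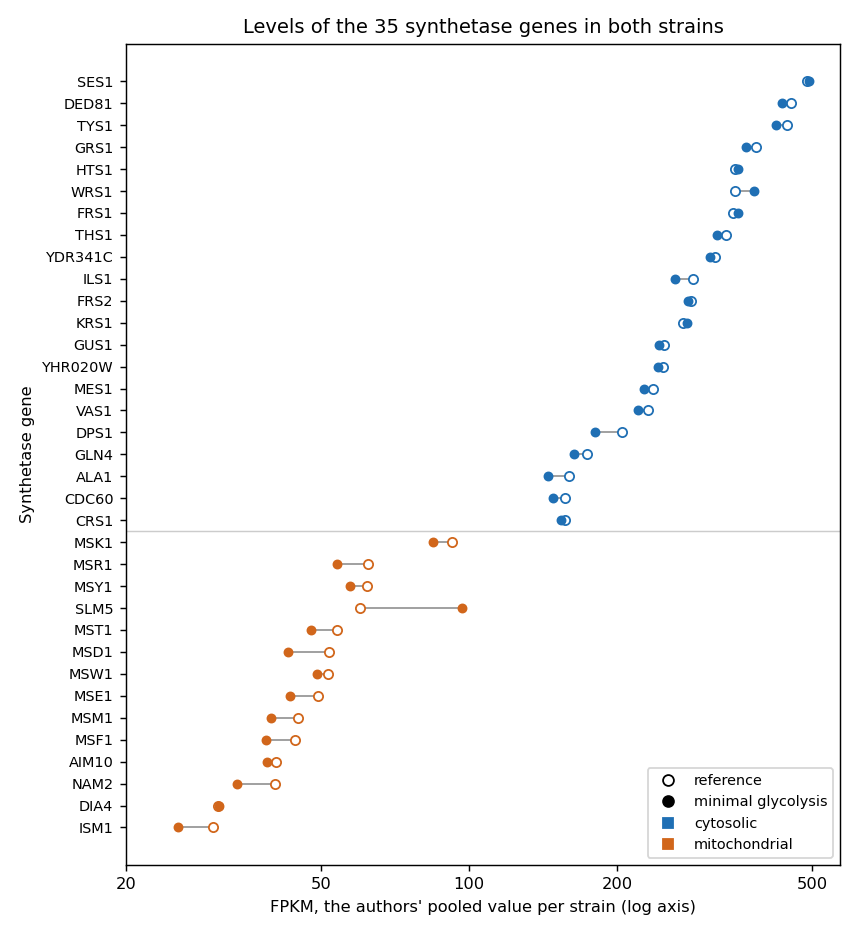
FPKM of the 35 synthetase genes on a log axis, open circles for the reference and filled circles for the minimal glycolysis strain, with cytosolic genes above the line and mitochondrial genes below it. Each circle is the authors' pooled value for 1 strain. No mitochondrial gene reaches the lowest cytosolic gene in either strain, and SLM5, from 60.0 to 96.5, has the longest rightward bar.

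Among all 35 synthetase genes the authors' test called 1, SLM5, and it was higher in the minimal glycolysis strain. A gene was called when the authors' q, their p-value adjusted over all tested models, was at most 0.05. Of the 5437 models tested in all, 43 were called, which is 0.791%. The family was selected for SLM5, so nothing is read from its count of 1. By the authors' unadjusted p of at most 0.05, SLM5 was again the only member, where 3.27% of all tested models passed. The other 34 members all had a q of 0.998 in the authors' deposited table, and all had log2 ratios, minimal glycolysis strain over reference, within 0.3 of 0.

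SLM5 (YCR024C) encodes the mitochondrial asparaginyl-tRNA synthetase and lies on chromosome 3 from base 160419 to base 161897 of the CEN.PK113-7D assembly, in a single coding exon of 1479 bp. Its FPKM was 60.0 in the reference and 96.5 in the minimal glycolysis strain. This is 1.61-fold, a log2 ratio of 0.69, with p = 5e-05 and q = 0.00735 in the authors' Cuffdiff test across all models. In the reference SLM5 was the fourth highest of the mitochondrial synthetase genes, below MSK1, MSR1 and MSY1, and in the minimal glycolysis strain it was the highest of the 14. Of all 5329 genes, 31 had a higher ratio than SLM5. Its cytosolic counterpart DED81 (YHR019C, chromosome 8, 135157 to 136821) had 453 FPKM in the reference and 434 in the minimal glycolysis strain, a log2 ratio of -0.06 with p = 0.705 in the authors' Cuffdiff test, and was not called. The asparaginyl pair therefore went from a cytosolic level 7.56 times the mitochondrial one to 4.50 times.

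SLM5 sat inside a run of 10 tested models on chromosome 3, 152512 to 167673, that were all called higher, and it had the smallest change of them. Its neighbours on the left were YCR023C, at 61.2 and 110 FPKM in the reference and the minimal glycolysis strain, and HSP30, a stress protein gene of the plasma membrane, at 20.4 and 41.4. On the right, 721 bp away, PMP1, a small regulatory protein of the plasma membrane proton pump, went from 42999 to 80717 FPKM, or 1.88-fold. These neighbours span levels from below SLM5 to among the most abundant messengers of the cell. The 9 other models of the run, which also hold MAK32, PET18, MAK31, HTL1, NPP1 and RHB1, lay between 1.80-fold and 2.31-fold with a median of 2.07-fold, against 1.61-fold for SLM5. By coordinate, the first tested models outside the run were CTO1 on the left and FEN2, a pantothenate transporter gene, on the right. Their log2 ratios were -0.06 and -0.15, and neither was called. RBP95 and CWH43 come between CTO1 and MAK32 by systematic name, but their coordinates in the deposited table do not lie there. RBP95 had a log2 ratio of 0.20 and CWH43 of -0.23. By coordinate the run thus ended between adjacent tested models on both sides. The 13 other mitochondrial synthetase genes lie on other chromosomes.

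**Figure D2:**
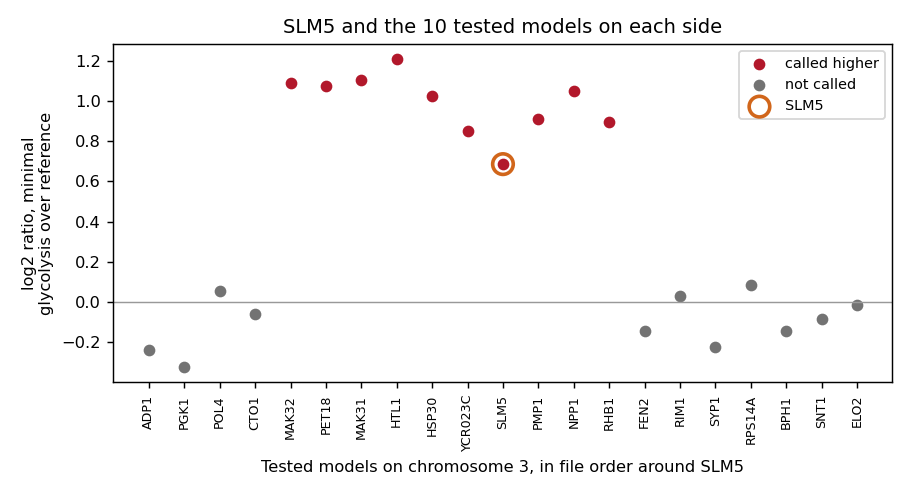
The log2 ratio (minimal glycolysis strain over reference) of SLM5 and the 10 tested models on each side, by coordinate on chromosome 3. Red points were called higher by the authors' q and grey points were not called. The 10 red points form 1 unbroken run in which SLM5, ringed, is the lowest at 0.69, and the 11 grey points lie between -0.32 and 0.08.

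The other 13 mitochondrial synthetase genes were not called, and with 0.791% of all tested models called, nothing is read from that. Their ratios lay slightly below 0 in 12 cases. Their median log2 ratio was -0.18, against 0.01 for all genes, and 9.14% of all genes had a ratio below that median. Below 0 lay 92.3% of these 13 genes and 47.0% of all genes. The smallest value was that of MSD1 (YPL104W), the aspartyl enzyme, which had 51.8 FPKM in the reference and 42.8 in the minimal glycolysis strain, a log2 ratio of -0.27 with p = 0.0985 in the authors' Cuffdiff test. NAM2 (YLR382C), the leucyl enzyme that also takes part in splicing of mitochondrial introns, had 40.1 and 33.7 FPKM, a log2 ratio of -0.25. ISM1, the isoleucyl enzyme, had 30.1 and 25.6 FPKM, a log2 ratio of -0.24. The shares of all genes with a ratio below those of MSD1, NAM2 and ISM1 were 3.17%, 4.02% and 4.73%. Each of the 3 had q = 0.998 in the authors' deposited table, far above the threshold.

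Then followed a closely spaced middle group. MSR1 for arginine had 62.1 FPKM in the reference and 53.7 in the minimal glycolysis strain, at a log2 ratio of -0.21. MSF1 for phenylalanine had 44.2 and 38.6, at -0.20, and MSE1 for glutamate had 49.1 and 43.1, at -0.19. MSM1 for methionine had 44.8 and 39.6 FPKM, at -0.18, and MST1 for threonine had 53.7 and 47.7, at -0.17. These 5 ratios differed by less than 0.05 from each other, and without replicate values their order cannot be told from noise. Nearer to 0 were MSK1 for lysine with 92.3 and 84.3 FPKM, at -0.13, and MSY1 for tyrosine with 61.8 and 57.3, at -0.11. MSW1 for tryptophan had 51.5 and 48.9 FPKM, at -0.07, and AIM10 (YER087W), which the member list takes as the prolyl enzyme, had 40.3 and 38.7, at -0.06. DIA4 (YHR011W), the seryl enzyme, was the exception, with 30.8 FPKM in the reference and 30.9 in the minimal glycolysis strain, a log2 ratio of 0.004. AIM10 lies on chromosome 5, with 8 tested models and 16417 bp between it and PUP3, the first of a run of 9 called models there, and it was not called.

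The cytosolic synthetase genes lay close to 0, and 0 of 21 were called. Of all tested models 0.791% were called, so nothing is read from the 0 calls among the 21 cytosolic genes. The smallest authors' unadjusted p among them was 0.276, of DPS1. Their log2 ratios had a median of -0.06, 16 lying below 0 and 5 above it, and 31.7% of all genes had a ratio below that median. The range ran from -0.18 for DPS1, the aspartyl enzyme, to 0.13 for WRS1, the tryptophanyl enzyme. DPS1 (YLL018C) had 204.5 FPKM in the reference and 181 in the minimal glycolysis strain, and WRS1 (YOL097C) had 347 and 379.9. Beyond -0.1 lay only DPS1, ALA1 for alanine with 160.1 and 144 FPKM, at -0.15, and ILS1 for isoleucine with 286 and 262, at -0.12. The remaining 17 genes, all but these 3 and WRS1, lay within 0.1 of 0.

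The most abundant cytosolic messenger was that of SES1, the seryl enzyme, with 489 FPKM in the reference and 492 in the minimal glycolysis strain, at a log2 ratio of 0.01. DED81 and TYS1, the tyrosyl enzyme, came next in the reference, TYS1 with 444 and 421 FPKM, at -0.08. GRS1 for glycine had 385 and 366 FPKM, at -0.07, and HTS1 for histidine had 348 and 354, at 0.02. FRS1 and FRS2 encode the beta and alpha subunits of a single phenylalanyl enzyme, and their levels were of like size without being equal. FRS1 had 345 FPKM in the reference and 353 in the minimal glycolysis strain, at 0.03, and FRS2 had 283 and 279, at -0.02. Of the others, THS1 for threonine had 333 and 319 FPKM, YDR341C, the arginyl enzyme, had 317 and 310.0, and KRS1 for lysine had 273 and 277. Log2 ratios were -0.06 for THS1, -0.03 for YDR341C and 0.02 for KRS1.

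The cytosolic genes not yet described, for glutamate, proline, methionine, valine, glutamine, leucine and cysteine, all stood below the class median of 283 FPKM in the reference, as did DPS1, ALA1 and KRS1. GUS1 and MES1, the glutamyl and methionyl enzymes that form a complex with the tRNA-binding protein Arc1, had 249.9 and 243 FPKM and 237 and 228 FPKM, at log2 ratios of -0.04 and -0.06. YHR020W for proline had 248 and 242 FPKM, at -0.03. DED81 and YHR020W are adjacent on chromosome 8, 438 bp apart with no tested model between them, and DIA4 lies 12877 bp from DED81 on the same chromosome, and all 3 lay within 0.07 of 0. VAS1 for valine had 231 and 221 FPKM, at -0.07, and GLN4 for glutamine had 174 and 164, at -0.09. CDC60 for leucine had 157 and 148 FPKM, at -0.08, and CRS1 had 157 and 154, at -0.03. The 6 genes for amino acids without a separate mitochondrial member had a median log2 ratio of -0.07, and the 15 with one had a median of -0.04.

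**Figure D3:**
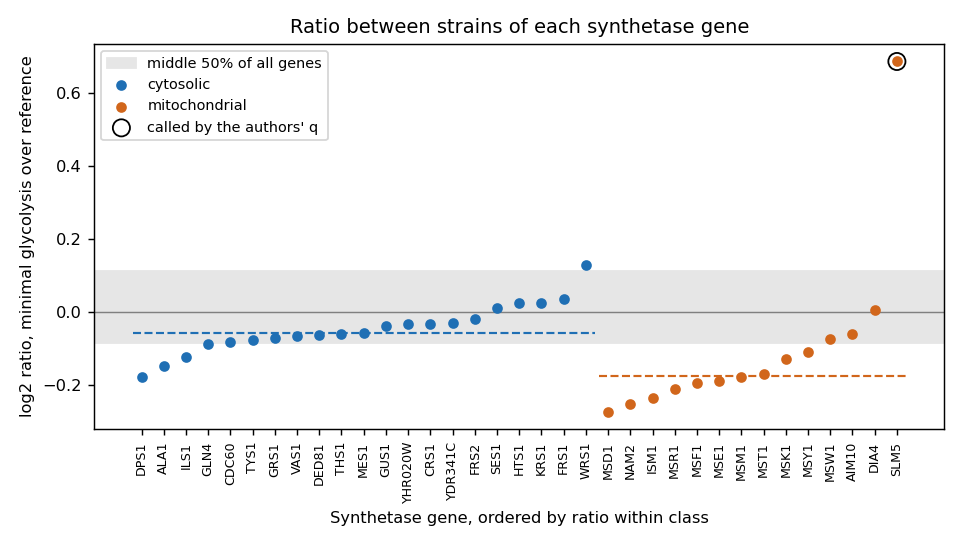
The log2 ratio (minimal glycolysis strain over reference) of each synthetase gene, ordered by ratio within its class, with the class median as a dashed line and the middle 50% of all genes, -0.08 to 0.11, in grey. The ringed point is SLM5, the 1 member called by the authors' q. Most cytosolic genes fall in the grey band, and 10 of the 14 mitochondrial genes fall below it.

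Set side by side within an amino acid, the mitochondrial gene had the lower ratio in all comparisons except that of asparagine. There are 15 pairs over 14 amino acids, since MSF1 is paired with both FRS1 and FRS2. In 14 of the 15 the cytosolic log2 ratio exceeded the mitochondrial one, by 0.007 for SES1 and DIA4 up to 0.23 for FRS1 and MSF1. The widest differences after FRS1 were 0.20 between WRS1 and MSW1 and 0.18 between YDR341C and MSR1. The class medians differed by 0.12 on the log2 scale. Below the lowest cytosolic gene, DPS1, lay 7 mitochondrial genes and 9.35% of all genes. MSM1 was only just among the 7, at -0.180 against -0.179 for DPS1. Values are pooled per strain and genes are not replicates, so these counts carry no p-value, and no difference between the classes is established by a test.

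In level, the cytosolic gene stood above the mitochondrial one in all 15 pairs in both strains, by widely different factors. In the reference the FPKM ratio ran from 2.96 for lysine, KRS1 over MSK1, to 15.9 for serine, SES1 over DIA4, with a median of 6.21. MSK1 was the most abundant mitochondrial member in the reference, SES1 the most abundant cytosolic one and DIA4 the second lowest mitochondrial one. In the minimal glycolysis strain the ratio ran from 3.29 to 15.9, with a median of 6.26. The asparaginyl pair alone narrowed between the strains, and it moved from the fourth widest FPKM ratio of the 15 pairs to the fourth narrowest.

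**Figure D4:**
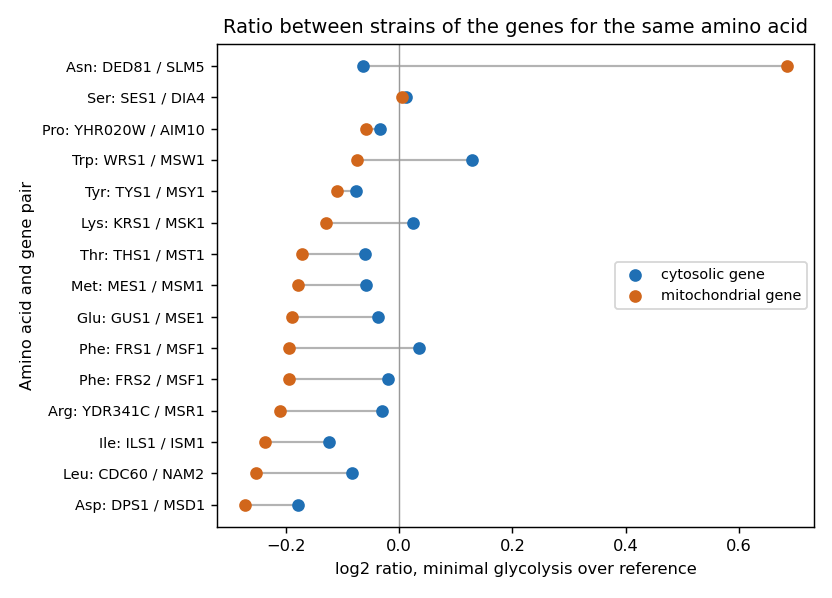
The log2 ratio (minimal glycolysis strain over reference) of each pair of a cytosolic and a mitochondrial gene for the same amino acid, joined by a line. The mitochondrial point lies left of the cytosolic one in 14 of 15 pairs, and right of it for DED81 and SLM5.

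Gene length moved with these ratios. Across all 5329 genes Spearman's rho between the log2 ratio and model length was -0.34, and across the members, which share libraries and differ in level, it was -0.53 over the 21 cytosolic genes and -0.71 over the 13 mitochondrial genes without SLM5. These values describe genes within pooled libraries and have no p. The median length was 2004 bp in the cytosolic class, 1728 bp in the mitochondrial class without SLM5 and 1251 bp over all genes, so both classes were longer than the genes they are set against. The part of length in the lower mitochondrial ratios was not tested. After a fit of the log2 ratio on expression level and length over all genes not called, the median was -0.0022 in the cytosolic class, -0.17 in the mitochondrial class without SLM5 and 0.02 over all genes. After that fit 11 of 21 cytosolic and 12 of 13 mitochondrial genes lay below 0, and SLM5 stood at 0.69. Of all 5329 genes, 2343 then lay below 0.

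**Figure D5:**
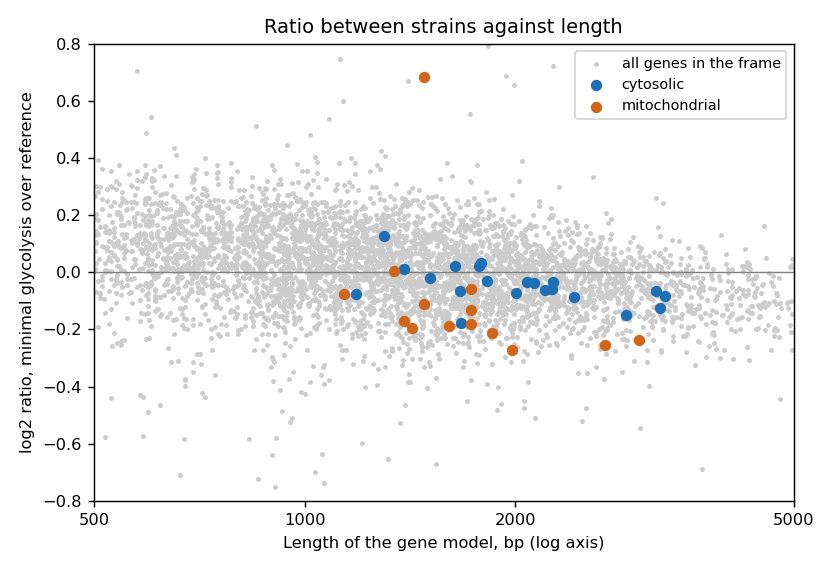
The log2 ratio (minimal glycolysis strain over reference) against the length of the gene model on a log axis, for the synthetase genes in colour and for the 4679 of 5329 genes between 500 and 5000 bp with ratios within 0.8 of 0 in grey. Longer genes tend to have lower ratios, and apart from SLM5 most mitochondrial points lie below the cytosolic points of similar length.

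The members that serve both compartments can be described only as 1 level each, and for some the table's model differs in length from the R64 coding sequence. Of the 35 members, 30 models have the R64 length. VAS1 is 138 bp shorter in the table, CRS1 39 bp and MSR1 78 bp. In each of these 3, the R64 coding sequence has an ATG codon exactly where a model shortened at its start would begin, at codon 47 of VAS1, codon 14 of CRS1 and codon 27 of MSR1. Which end of the model is shorter was not examined, since the CEN.PK113-7D sequence was not used here. The models of YHR020W and MSF1 are 12 bp and 15 bp longer than in R64.

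Genes that work beside the synthetases had median log2 ratios between -0.09 and 0.06 in 5 groups of 11 to 56 genes. The authors' q called 0 members in each group, and at the 0.791% of all models that were called, groups of this size would hold fewer than 1 call each, so nothing is read from these counts. The 15 charging partners are a mixed list of genes that help synthetases or that mature, modify, repair or carry tRNA. The list is not limited to 1 compartment and also holds GRS2. Their median log2 ratio was -0.02, and 8 lay below 0. The largest was FMT1, the enzyme that formylates the mitochondrial initiator methionyl-tRNA, at 4.50 FPKM in the reference and 2.97 in the minimal glycolysis strain, a log2 ratio of -0.60 with p = 0.0172 in the authors' Cuffdiff test and no call after adjustment. A list of 11 mitochondrial translation genes had a median of -0.09 with 8 below 0. It holds translation factors and the mitochondrial tRNA modification genes SLM3, MTO1 and MSS1, at log2 ratios of 0.02, -0.11 and 0.18. MEF1, a mitochondrial elongation factor, had 111 and 94.0 FPKM, a log2 ratio of -0.25. The 56 genes named MRP, MRPL or MRPS were taken as mitochondrial ribosomal protein genes by symbol alone, and those with other names were left out. They had a median of -0.05 with 37 below 0. MRPL4 had 107 and 75.5 FPKM, a log2 ratio of -0.51 with q = 0.267 in the authors' deposited table. After the same fit on level and length, the median was -0.08 for the list of mitochondrial translation genes, with 9 of 11 below 0. It was -0.11 for the mitochondrial ribosomal protein genes, with 46 of 56 below 0. The charging partners were then at 0.01, which turns the sign of their median, and the 13 mitochondrial synthetase genes were at -0.17. No difference between these groups was tested.

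On the cytosolic side, 15 of 17 listed translation factors had a tested model with a value in both strains. Their median log2 ratio was 0.06, with 6 below 0. The largest was that of YEF3, the fungal elongation factor 3, at 1530 FPKM in the reference and 1342 in the minimal glycolysis strain, a log2 ratio of -0.19. General amino acid control, the response in which uncharged tRNA activates the kinase Gcn2 and raises Gcn4, was represented by 26 genes, 4 of them regulators and the rest biosynthetic targets. Their median log2 ratio was -0.04, with 19 below 0, and HIS4, a histidine synthesis gene, had 593 and 485 FPKM, a log2 ratio of -0.29 with p = 0.0860 in the authors' Cuffdiff test. After the fit on level and length, the median of the 26 genes was -0.01, with 16 below 0. That of the 15 cytosolic translation factors was then 0.03, with 4 below 0.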

How the data were processed

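RNA sequencing libraries of 2 strains, 2 libraries each, were compared. The submitters' processing notes list SAMtools 0.1.7-r510, BWA 0.5.9-r16, Cuffdiff, Cufflinks and CASAVA 1.8.2 without saying what each did. The labels name CEN.PK113-7D as the genome, give both single reads of 51 bases and a paired-end protocol, and a kit that does not mark strand. Per the file headers, the deposited FPKM is 1 value per model and strain, with a p-value and a q-value that the authors obtained with Cuffdiff. With no values per library, no test across libraries was run, and p-values measure only what the authors' model took as spread. Labels do not say outright that libraries came from separate cultivations. The number of per-sample columns left unused was 0.

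Folds and log2 ratios were computed from FPKM without a pseudocount, on the longest tested model per systematic name. The file's start positions count from 0, which the model lengths show, and printed starts count from 1. Symbols come from R64 by systematic name. The fit on level and length used polynomials of degree 3 over all genes not called and accounted for 13.0% of the variance. On simulated data it was tried only with a larger shift, in random genes left out of the fit. How well it keeps shifts as small as those of the mitochondrial class was not tested. Proteins translated from R64 were aligned globally with Biopython 1.88 (BLOSUM62). Python 3.11.15 and pandas 2.3.3 were used. Members and lists were chosen with earlier results of these data known. Named genes are all members, the run around SLM5 with the first tested model on each side, RBP95, CWH43, GRS2, SLM3, MTO1 and MSS1. The largest absolute ratio of each list without calls is named as well. Alternatives were another q, unadjusted p, recomputed adjustment, a minimum of 10 FPKM, pseudocounts, means, centring, the fit, and subsets of members.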

Additional observations from a re-analysis of the deposited data

How the results depend on the processing

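SLM5 was the 1 called member at a q of 0.01, by unadjusted p, with adjustment over 1 model per gene and with a minimum of 10 FPKM. Its log2 ratio was 0.68 and 0.64 with 1 and 5 FPKM added and 0.67 after centring on the median of all genes. The cytosolic median log2 ratio stayed at -0.06 with a pseudocount or an FPKM minimum. It was -0.045 as a mean, -0.070 after centring, -0.038 with only genes that have a mitochondrial counterpart and -0.0022 after the fit on level and length. The mitochondrial median of -0.18 was -0.17 and -0.16 with 1 and 5 FPKM added, -0.10 as a mean, in which SLM5 weighs more, -0.19 after centring and -0.16 after the fit. The cytosolic minus mitochondrial difference of 0.12 was 0.11 and 0.10 with 1 and 5 FPKM added, 0.054 between means, 0.14 with counterpart genes only and 0.16 after the fit, so no alternative turned its direction. The level ratio of 5.63 was 5.68 with counterpart genes only, 5.76 without SLM5, 6.46 in the minimal glycolysis strain and 5.64 between geometric means. With no replicate spread, any alternative that changed the printed value is given. No paired analysis was possible because the table holds 1 pooled value per strain, and leaving out a library was not possible for the same reason. Depth per gene is unknown, so how small a change could have been called was not measured.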
